A study of Drosophila melanogaster with 12 samples.

Results

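The UDP-glycosyltransferase (UGT) family of Drosophila melanogaster was followed in head RNA of flies whose neurons make mutant human tau. Members were all rows of the gene table whose symbol is Ugt followed by a digit, 35 of 13515 rows, and each of the 35 Ugt symbols in the gene name table had a row. Tau flies (Elav-Gal4/+;UAS-tauR406W/+) carried a pan-neuronal Gal4 driver and a transgene for human tau with the R406W change, which is found in inherited frontotemporal dementia. Control flies (Elav-Gal4/+) carried the driver without a UAS transgene. Both groups were at day 10 of adulthood and had 6 libraries, named A to F, each from 18 pooled heads of males and females. The driver acts in neurons, whereas a head also holds antenna, fat body, cuticle, glia and blood cells. All 19 neuron and photoreceptor markers looked at had a row and a mean above the level needed for a test. The human tau transcript was not analysed here.

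UGTs are enzymes of the endoplasmic reticulum membrane that move a sugar from a UDP-sugar, in insects mostly UDP-glucose, onto small fat-soluble molecules. The product dissolves better in water and can be excreted. Substrates include plant toxins, insecticides, pigments and hormones, and in the antenna UGTs are thought to help clear odorants. The family works beside cytochrome P450 enzymes and glutathione S-transferases in detoxification.

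Values are the authors' normalised counts, and library totals ran from 24.7 to 30.2 M. Tau B, Control E and Control F had signal in genes at or near 0 elsewhere. Over 1973 genes with a median of at most 2, the mean value was 24.0 in Tau B, 11.5 in Control E and 5.39 in Control F, against 1.17 to 2.49 in the other 9 libraries. Results that rest on these libraries are given with and without them.

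Most UGT RNA in the head came from a few members. Divided by exon length, Ugt49B1 was the most abundant gene in both groups, with 2152 ± 885 normalised counts per kb in Tau and 1261 ± 425 in Control (SD, n = 6 each). By the mean over all 12 libraries Ugt302C1, Ugt36E1, Ugt301D1, Ugt37D1 and Ugt49C1 came next, although the order differed between the groups. Ugt36E1, which acts in olfactory neurons in the discrimination of sex pheromones, had 867 ± 200 per kb in Tau and 1069 ± 200 in Control. In Control heads the levels of Ugt36E1 and Ugt302C1 (1035 ± 154 per kb) differed by less than their SD. Ugt49C1 had 437 ± 71.8 per kb in Tau and 378 ± 48.2 in Control, where Ugt35B1 (431 ± 115.2) stood above it. These 6 genes made up 62.1 to 77.0% of the family's normalised counts in Tau libraries and 64.7 to 67.2% in Control libraries.

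The rest of the family spanned a wide range. Of the 35 members, 18 had a mean of at least 50 normalised counts over the 12 libraries and 17 had less, down to 4.11 for Ugt35D1. At the low end 15 members were listed at 0 in at least 1 library. The whole family summed to 15368 ± 4353 normalised counts in Tau and 15202 ± 2513 in Control, which was 0.0589 ± 0.0162% and 0.0542 ± 0.00832% of all counts in Tau and in Control (SD, n = 6 each). The family's summed RNA differed by less than the spread between libraries.

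**Figure D1:**
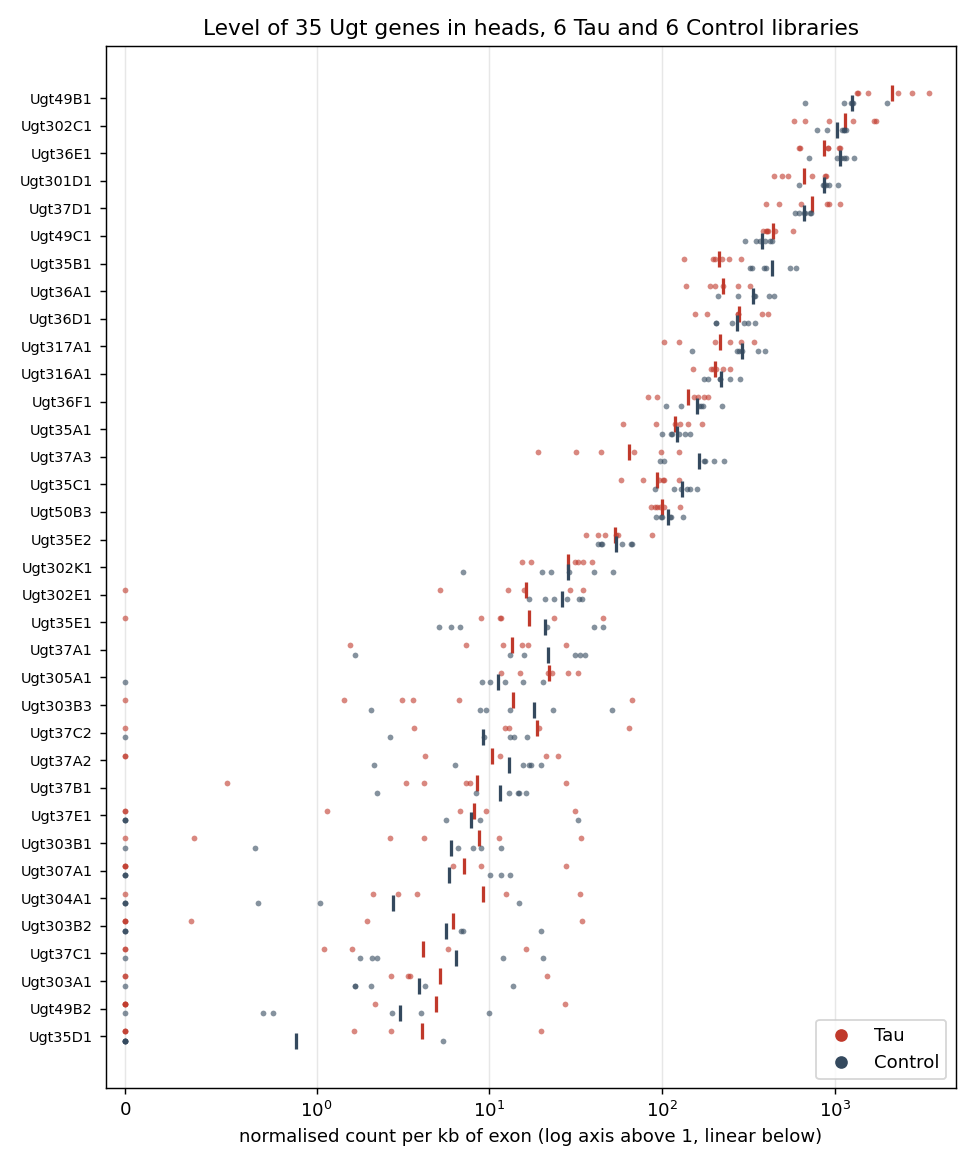
Level of each of the 35 members, in normalised counts per kb of exon (log axis above 1, linear below), with 1 point per library, Tau above Control in each row, and bars for group means. Ugt49B1, Ugt302C1 and Ugt36E1 lead, and below Ugt302K1 many points spread down to 0.

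Many members lie next to each other in the genome. By a limit of 30 kb between neighbours, 23 members fell into 6 arrays and 12 stood alone. On chromosomes, 17 members are on 3R, 11 on 2L, 5 on 2R and 2 on 3L. The largest array, on 3R (11126597 to 11177910, Ensembl annotation of BDGP6, which has dm6 coordinates), holds 10 members from Ugt35C1 to Ugt303A1. Levels differed widely within it, from 1090 normalised counts per kb for Ugt302C1 to 4.53 for Ugt303A1 over all libraries. All 3 genes of the array Ugt36F1, Ugt36D1 and Ugt36E1 on 2L had means of at least 50, and none of the array Ugt303B3, Ugt303B1 and Ugt303B2 on 3R did.

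The main comparison asked which members differ in level between Tau and Control heads. Of the 35 members, 30 had a mean of at least 10 and were tested, while 5 were not. Of the 30, 2 were lower in Tau (6.67%), none was higher and 28 were not called, at an adjusted p under 0.05 in limma over all genes. Over all 10845 genes tested, 5.23% were called, 3.13% lower and 2.10% higher, so the share of called members was near the background. At an unadjusted p under 0.05 there were 6 members (20%), against 18.2% of all genes. The log2 fold change was below 0 for 21 of the 30 and above 0 for 9, with a median of −0.16, beside 0.01 for all genes. Among the 18 members with a mean of at least 50, it was below 0 for 13 and above 0 for 5, with a median of −0.12. The median of the tested members was −0.42 without Control B, −0.35 without Control A, −0.26 without Control D and −0.10 without Tau A. Without Tau B, Control E and Control F it was −0.19, over 25 tested members. Which members were tested changed with the libraries left out. Both called members, Ugt35B1 and Ugt37A3, lie on 3R in different arrays.

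**Figure D2:**
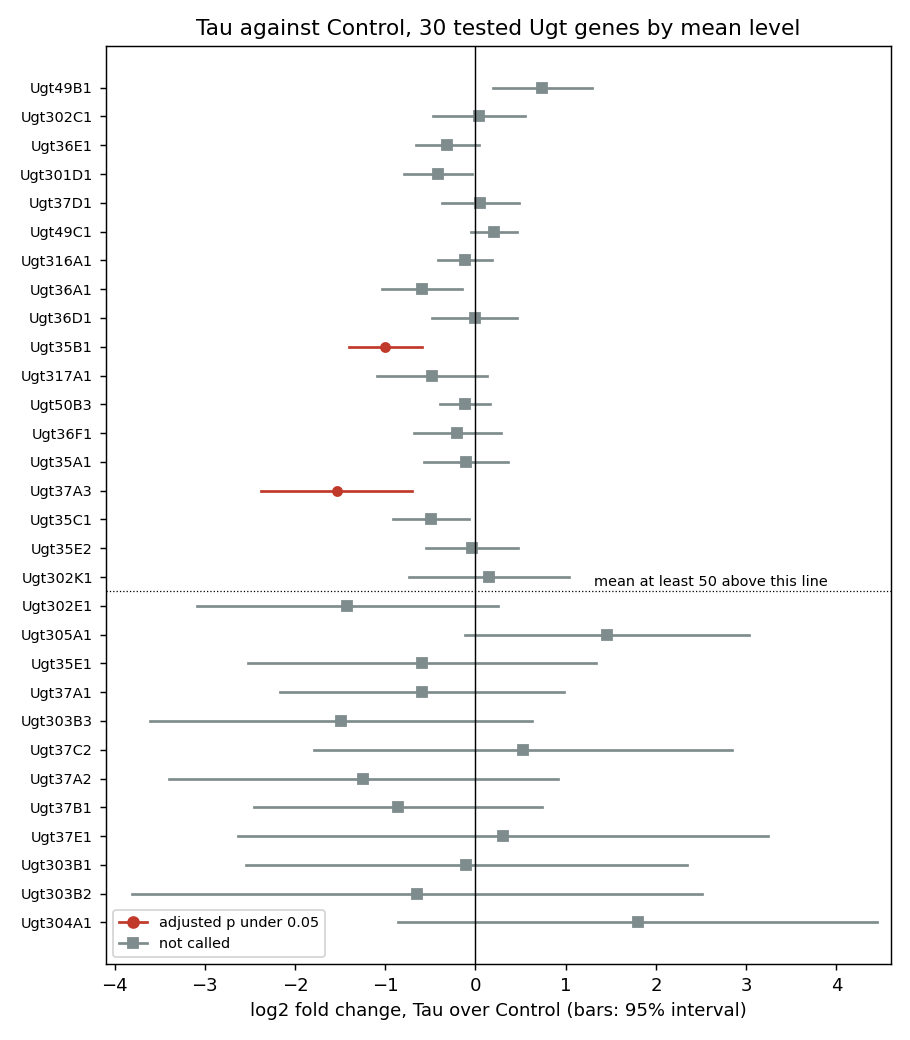
Log2 fold change of Tau over Control for the 30 tested members, ordered by mean level, with 95% intervals from limma. Ugt35B1 and Ugt37A3 (red circles) are called, and the intervals are wide for the 12 members with a mean under 50.

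Ugt35B1 (FBgn0026314; 3R, 11168503 to 11170246, minus strand), a UGT known for preferential expression in the antenna, was the clearest change in the family. Its normalised counts in Tau A to F were 224, 478, 340, 370, 332 and 408. In Control A to F they were 994, 651, 923, 665, 539 and 551. Every Tau library lay below every Control library. It was the only tested member whose groups did not overlap, which held for 3.37% of all genes. It fell 2.0-fold, to 359 ± 84.8 in Tau against 721 ± 193 in Control (SD, n = 6 each), a log2 fold change of −1.0 ± 0.19 (SE; limma adjusted p = 0.00614). The call held in all 22 alternatives, with log2 fold changes from −1.27 to −0.87. Without Tau B, Control E and Control F it was −1.27 (adjusted p = 0.00655).

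Its neighbour in the array, Ugt35A1 (FBgn0026315; 3R, 11170817 to 11172664), was not called. Ugt35A1 had 211 ± 68.6 normalised counts in Tau and 217 ± 29.5 in Control, a log2 fold change of −0.11 with a 95% interval from −0.57 to 0.36 (limma adjusted p = 0.865). The ratio of Ugt35B1 to Ugt35A1 ran from 1.35 to 3.80 in Tau libraries and from 2.08 to 4.52 in Control libraries. Only Tau F, where Ugt35A1 was lowest, had a ratio inside the Control range. On the log2 scale the difference of Tau minus Control was −0.89 ± 0.29 (SE, n = 6 each; exact two-sided permutation p = 0.0238, 0.0455 adjusted over 2 such ratios). These ratios were chosen after the values had been seen, and the adjustment over 2 ratios does not cover that choice. Their p-values therefore describe the ratios and are no independent support. Counting Ugt35A1, the 5 members of this array other than Ugt35B1 that had a mean of at least 50 showed log2 fold changes from −0.49 to 0.15, none of them called.

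Markers of the antennal sensilla, where Ugt35B1 is known to be made, were set beside it. Of 15 such genes 1 rose and none fell, where 2.10% of all tested genes were called higher and 3.13% lower. Their median log2 fold change was 0.01. The gene that rose, Obp56d, encodes an odorant binding protein, and had 4767 ± 540 normalised counts in Tau and 3353 ± 785 in Control (adjusted p = 0.0278). The summed level of the 15 markers ran from 55517 to 97053 in Tau libraries and from 68417 to 90755 in Control libraries. Most of that sum was Obp19d, with 47007 ± 11580 in Tau and 48587 ± 4344 in Control, so it says little about the other markers. No marker of the list was at 0. In whole heads, fewer cells of a type and less RNA per cell cannot be told apart.

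Ugt37A3 (FBgn0038083; 3R, 12741958 to 12743680, minus strand) fell further but with more spread. Tau A to F had 31.9, 74.2, 164, 210, 114 and 52.8 normalised counts. Control A to F had 297, 172, 290, 334, 163 and 382. The groups overlapped, since Tau C and Tau D lay above Control E and Tau D also above Control B. It fell to 108 ± 68.5 in Tau against 273 ± 88.2 in Control (SD, n = 6 each). On the scale of the fit, log2(value + 1), the change was −1.54 ± 0.39, which is 2.90-fold (SE; limma adjusted p = 0.0326). The call was lost in 8 of 22 alternatives while the direction stayed. Those were the fit without a variance trend (adjusted p = 0.0844), the fit without Tau B, Control E and Control F (−1.51, adjusted p = 0.125), and the fits that left out Tau B, Tau F, Control A, Control C, Control D or Control F alone (adjusted p from 0.0576 to 0.0785).

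The next gene along 3R, Ugt37A2, belongs to the same subfamily, so reads may be split between the 2 copies. Ugt37A2 was listed at 0 in Tau A and Tau E and reached at most 42.9 in Tau and 33.9 in Control libraries. The sum of both copies was 125 ± 76.9 in Tau and 295 ± 94.97 in Control. The log2 difference of Tau minus Control was −1.44 ± 0.48 (SE, n = 6 each, exact two-sided permutation p = 0.013, adjusted over 3 sums 0.039). With 1 library left out the exact permutation p, not adjusted over the sums, ran from 0.00649 to 0.0238. Without Tau B, Control E and Control F the difference was −1.48 (exact permutation p = 0.0476, not adjusted). Most of the sum was Ugt37A3, with means of 108 in Tau and 273 in Control, so it is no separate support for that gene's fall. The other sums of same-subfamily neighbours were those of Ugt35E1 with Ugt35E2 (−0.08 ± 0.26, exact permutation p = 0.797, adjusted 0.797) and of the 3 Ugt303B genes (−0.94 ± 1.122, exact permutation p = 0.416, adjusted 0.623). With 1 library left out the value for the Ugt303B genes ran from −1.70 (without Tau B) to −0.51 (without Control E), and it was −0.89 without Tau B, Control E and Control F. How alike the copies are in sequence was not examined.

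**Figure D3:**
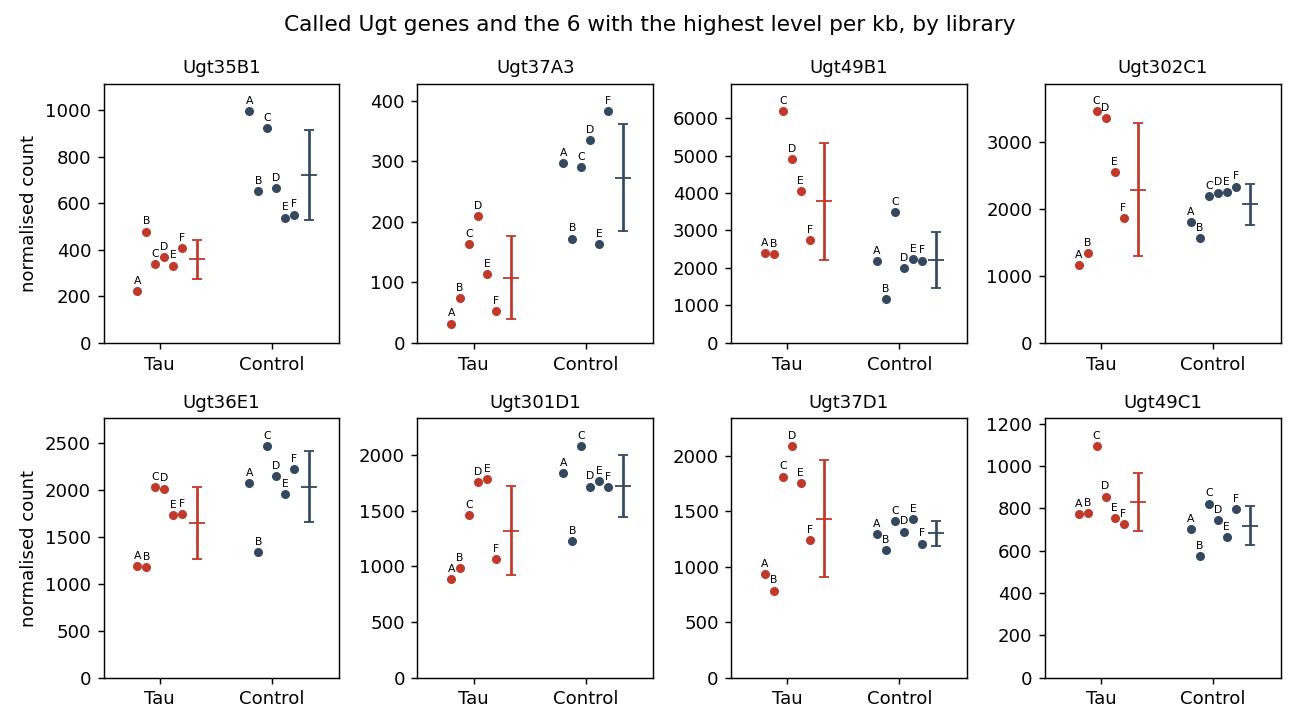
Normalised counts of the 2 called members and of the 6 members with the highest level per kb, 1 point per library with its letter, and mean ± SD beside the points. All 6 Tau values of Ugt35B1 lie under the Control values, and in Ugt302C1 and Ugt37D1 the Tau libraries spread above and below the Control libraries.

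Ugt49B1 (FBgn0027073; 2R, 21212880 to 21214972, minus strand), the most abundant member, had the largest positive value among members with a mean of at least 50 but was not called. Tau A to F had 2403, 2364, 6177, 4902, 4057 and 2742 normalised counts. Control A to F had 2173, 1173, 3496, 1995, 2241 and 2198. All 6 Tau libraries lay above 5 of the Control libraries, and Control C lay inside the Tau range. The means were 3774 ± 1553 in Tau and 2213 ± 745 in Control (SD, n = 6 each), a log2 fold change of 0.74 ± 0.26 (SE; limma adjusted p = 0.119). It passed the threshold in 3 of 22 alternatives, among them libraries rescaled to equal totals (0.85, adjusted p = 0.0465) and array weights (0.97, adjusted p = 0.0151). With 1 library left out the adjusted p ran from 0.0557 to 0.235.

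A share of the family's counts depends on the other members as well. Without Ugt49B1 the family summed to 11594 ± 2871 normalised counts in Tau and 12990 ± 1807 in Control (SD, n = 6 each). The share of Ugt49B1 did not overlap between the groups, although its own values did. This was not tested, and how often the shares of other members did not overlap was not counted. Ugt49B1 made up 19.7 to 29.7% of the family's normalised counts in Tau libraries and 10.8 to 18.7% in Control libraries. Its neighbour Ugt49C1 (FBgn0034605; 2R, 21215435 to 21217779) had 772, 778, 1094, 856, 754 and 725 normalised counts in Tau A to F, and 702, 573, 822, 744, 665 and 796 in Control A to F. The groups overlapped. The means were 830 ± 136 in Tau and 717 ± 91.5 in Control, a log2 fold change of 0.21 ± 0.12 (adjusted p = 0.403). The ratio of Ugt49B1 to Ugt49C1, also chosen after the values had been seen, was higher in Tau by 0.54 ± 0.23 on the log2 scale (SE, n = 6 each; exact two-sided permutation p = 0.0455, 0.0455 adjusted over 2 ratios). That result was lost in 8 of the 12 fits that left out 1 library (exact permutation p from 0.0541 to 0.0909). The permutation p stayed under 0.05 when the library left out was Tau A, Tau B, Control C or Control E.

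The other highly expressed members were not called, and the precision of the comparison differed between them. Ugt302C1 (FBgn0040259; 3R, 11157098 to 11159744) had 1160, 1341, 3452, 3352, 2543 and 1857 normalised counts in Tau A to F, and 1804, 1565, 2194, 2240, 2251 and 2329 in Control A to F. The Tau libraries lay on both sides of the Control range, and the log2 fold change was 0.04 ± 0.24, with a 95% interval from −0.47 to 0.54 (adjusted p = 0.967). Ugt37D1 (FBgn0040260; 2L, 16799025 to 16801584) showed the same shape, with 931, 784, 1813, 2088, 1752 and 1238 in Tau, and 1297, 1147, 1409, 1318, 1432 and 1209 in Control. Its log2 fold change was 0.05, with an interval from −0.37 to 0.48 (adjusted p = 0.933). Both intervals leave room for a change in either direction.

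Ugt36E1 and Ugt301D1 had negative values that did not pass. Ugt36E1 (FBgn0027070; 2L, 18826770 to 18829059) had 1191, 1182, 2035, 2015, 1735 and 1743 normalised counts in Tau A to F, and 2070, 1342, 2467, 2151, 1957 and 2223 in Control A to F. Tau A and Tau B lay below all Control libraries and the other 4 Tau libraries within their range (−0.31 ± 0.17 on the log2 scale, adjusted p = 0.347). Ugt301D1 (FBgn0032684; 2L, 18509560 to 18513512) had 885, 985, 1462, 1752, 1779 and 1062 in Tau, and 1836, 1226, 2078, 1715, 1765 and 1708 in Control. Tau A, Tau B and Tau F lay below every Control library, and the log2 fold change was −0.42 ± 0.18 (adjusted p = 0.213).

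Ugt36A1 and Ugt35C1 also had an unadjusted p under 0.05, and are named after their values had been seen. Ugt36A1 (FBgn0015663; 2L, 3619097 to 3621573), also called Dorothy, is known from blood-forming organs and pericardial cells. Its normalised counts were 316, 438, 633, 740, 518 and 469 in Tau A to F, and 954, 483, 1020, 797, 637 and 780 in Control A to F. The groups overlapped, and the log2 fold change was −0.59 ± 0.21 (limma adjusted p = 0.12). Only 1 of 22 alternatives passed the threshold, the fit without Control B (limma adjusted p = 0.0367). In the other 21 the limma adjusted p was over 0.05, up to 0.27 without Tau B, Control E and Control F. Beside Ugt36A1, of 10 haemocyte markers 8 fell and none rose, where 3.13% of all tested genes were called lower. The median was a log2 fold change of −0.80. The 2 that did not pass were Hml (−0.19, limma adjusted p = 0.59) and NimC1 (−0.67, limma adjusted p = 0.0564). The haemocyte markers summed to between 43312 and 61241 normalised counts in Tau libraries and between 72001 and 113047 in Control libraries, and none was at 0. Eater, Sr-CI and PPO2 had log2 fold changes of −1.41, −1.10 and −1.15 (adjusted p = 0.000495, 0.000495 and 0.00114). Their part in the value of Ugt36A1 was not tested.

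Ugt35C1 (FBgn0040256; 3R, 11126597 to 11128328), earlier called Ugt86Dd, is linked to nicotine resistance in Drosophila larvae. It had 209, 172, 161, 170, 130 and 96.5 normalised counts in Tau A to F, and 267, 234, 197, 151, 216 and 241 in Control A to F. Control C and Control D lay inside the Tau range, and the log2 fold change was −0.49 ± 0.20 (adjusted p = 0.191). Of the 16 members with a mean of at least 50 that were not called, 12 had a 95% interval that held 0.

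Low members could not be compared with any precision. The 12 tested members with a mean under 50 had log2 fold changes from −1.49 to 1.797, with SEs from 0.74 to 1.49, against SEs from 0.12 to 0.42 in the 18 with more. Their adjusted p ran from 0.326 to 0.981. Tau B was the highest of the 12 libraries in 13 of the 17 members with a mean under 50. The mean of these 17 was 57.1 normalised counts in Tau B, 35.8 in Control E and 21.3 in Control F, against 3.897 to 16.8 in the other 9 libraries. Ugt303B1, Ugt303B2, Ugt303B3, Ugt304A1 and Ugt37E1 reached a mean of 10 only through these 3 libraries. The 5 untested members, Ugt307A1, Ugt37C1, Ugt303A1, Ugt49B2 and Ugt35D1, had means from 4.11 to 9.78, and their highest value, 46.2, was that of Ugt49B2 in Tau B.

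Members varied together from library to library. Relative to its own group's mean, Tau D was high in 17 of the 18 members with a mean of at least 50 and Tau C in 16, while Tau A was high in 1. In Control heads, Control C was high in 15 and Control B in 3. Over all 9017 genes with a mean of at least 50, between 47.2 and 53.9% lay above their group mean in any library. The median deviation of the 18 members ran from −0.53 in Tau A to 0.39 in Tau D on the log2 scale, and from −0.34 in Control B to 0.30 in Control C. Over all those genes the medians stayed between −0.02 and 0.02.

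The pattern was shared by genes on different chromosomes. Tau A and Tau B were the lowest pair of Tau libraries in 8 of the 18 members (44.4%), against 14.3% of all genes. These were Ugt49B1, Ugt317A1, Ugt302C1, Ugt36E1, Ugt36D1, Ugt36A1, Ugt301D1 and Ugt37D1, which lie on 2L, 2R and 3R. Control B was the lowest Control library in 12 of the 18 members, against 20.3% of all genes. Some orders were near the background. Tau D was the highest Tau library in 4 of the 18 (22.2%), against 22.4% of all genes. Tau B was the lowest in 4 (22.2%), against 20.8%. Others were further from it. Tau C was the highest in 6 (33.3%), against 11.0%, and Tau A the lowest in 8 (44.4%), against 18.7%. Control C was the highest Control library in 10 (55.6%), against 34.2%. Tau C, Tau D and Tau E were the 3 highest Tau libraries in 8 (44.4%), against 11.2%. The spread between libraries was also larger in Tau: 15 of the 18 members had a larger SD of log2 values in Tau (83.3%), against 44.8% of all genes. The median SD of the 18 was 0.46 in Tau and 0.30 in Control, beside 0.22 and 0.24 for all genes. These shares describe members that move together and are given without a test.

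**Figure D4:**
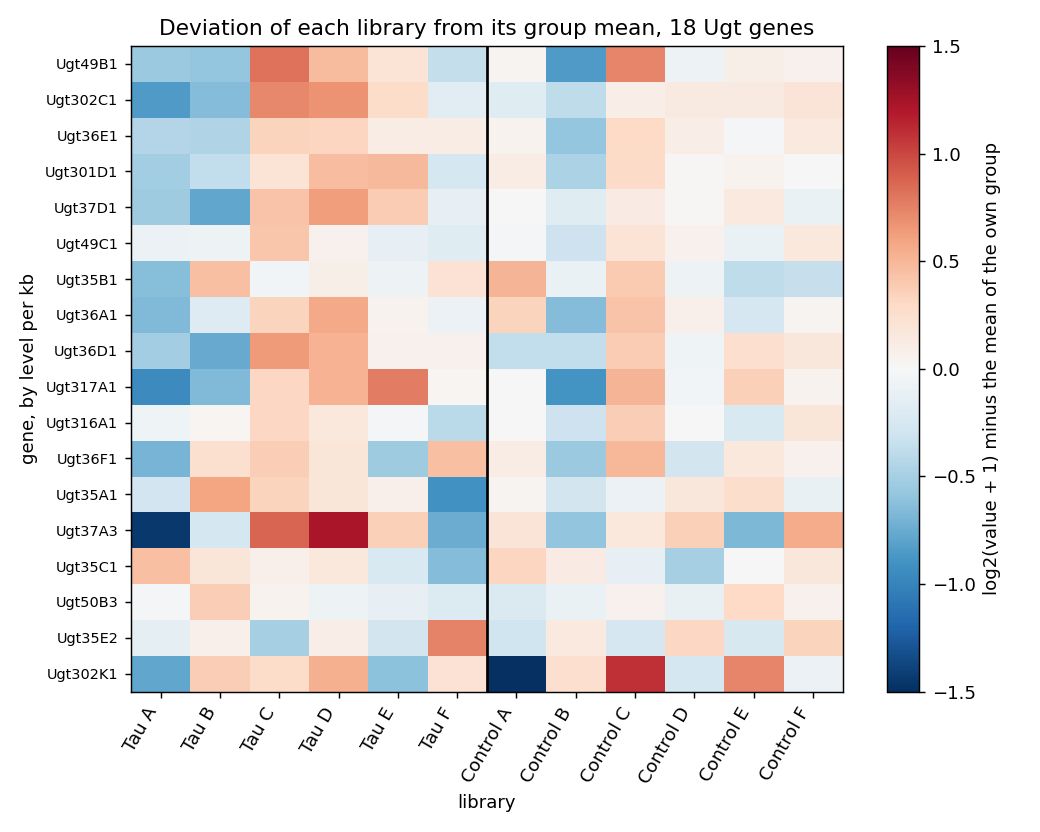
Log2(value + 1) of each library minus the mean of its own group, for the 18 members with a mean of at least 50, Tau libraries left of the line and Control libraries right of it, with colours ending at 1.5 on either side. Tau A and Control B are mostly blue (low), and Tau C, Tau D and Control C mostly red (high).

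The mean of markers of oenocytes and epidermis, the cells that make cuticle and its hydrocarbons, was ordered the same way in Tau. The family's sum was lowest in Tau A (10148 normalised counts), followed by Tau B, Tau F, Tau E and Tau D, and highest in Tau C (20817). The mean log2 difference of the 5 measured markers from the Control mean was −1.63 in Tau A, −0.86 in Tau B, −0.81 in Tau F, −0.59 in Tau E, −0.39 in Tau D and −0.24 in Tau C. Not every marker shared this order. Cyp4g1, Desat1, FASN2 and Cpr were lowest in Tau A, but FarO had 62.9 and 65.2 normalised counts in Tau A and Tau B and 38.2 in Tau C. In Control the family's sum was lowest in Control B (10857) and highest in Control C (18690), while the marker value was lowest in Control B (−0.37) and highest in Control E (0.22), with 0.15 in Control C, so the Control order was not the same. Of these 5 markers 1 fell, where 3.13% of all tested genes were called lower. It was Cyp4g1, the P450 of hydrocarbon synthesis, with a log2 fold change of −2.10 ± 0.35 (limma adjusted p = 0.00191). The 5 markers summed to between 61273 and 147276 in Tau and between 126911 and 209936 in Control. The Tau order was not particular to these markers. The 7 other enzymes that use UDP-glucose or UDP-glucuronate had the same one, from −0.52 in Tau A to −0.02 in Tau C, with Control B lowest (−0.35) and Control C highest (0.14). Haemocyte markers were also lowest in Tau A (−1.05) and Tau B (−0.999) and highest in Tau D (−0.60) and Tau C (−0.61), with Control B lowest (−0.25) and Control C highest (0.45). The part of any of these lists in the spread of the family was not tested.

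Markers of other cell types followed. Over all tested genes, 3.13% were called lower and 2.10% higher, and the counts here stand beside those shares without a test. Of 14 fat body markers 4 fell and none rose, and their median log2 fold change was −0.76. All 4 female-biased genes among them (Yp1, Yp2, Yp3 and fit) had negative values and 1, fit, fell. Their mean log2 difference was lowest in Tau E (−2.12) and highest in Tau A (−0.72) within Tau, an order unlike that of the family. Within Control it was highest in Control C (1.07), where the family's sum was also highest, and lowest in Control E (−1.16), while the family's sum was lowest in Control B. The part of these genes in the values of the family was not tested. Of 8 glial markers 1 rose and 1 fell, of 11 photoreceptor markers 1 fell, and of 8 neuronal markers none was called.

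Some genes that supply the family's sugar donors were looked at next. The gene sgl, which encodes the dehydrogenase that turns UDP-glucose into UDP-glucuronate, rose to 1528 ± 257 normalised counts in Tau against 989 ± 135 in Control (log2 fold change 0.62 ± 0.12, adjusted p = 0.00579). UGP, which makes UDP-glucose itself, had 5854 ± 512 in Tau and 5991 ± 1257 in Control (−0.01 ± 0.12, adjusted p = 0.981).

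None of 7 other enzymes that use UDP-glucose or UDP-glucuronate was called (median −0.12). The lowest adjusted p there was that of GlcT, the glucosylceramide synthase, with 2486 ± 802 normalised counts in Tau and 4304 ± 1247 in Control (−0.80 ± 0.23, adjusted p = 0.0632). None of 10 regulators of detoxification genes was called, with a median of 0.03. Among them cnc, the fly counterpart of Nrf2, had a log2 fold change of 0.02 ± 0.07 and its inhibitor Keap1 one of 0.20 ± 0.13 (adjusted p = 0.948 and 0.486). None of 5 export pumps was called (median 0.08). Of 4 sulfotransferases, which conjugate the same kinds of molecules with sulfate, 2 were tested and St1 fell (−0.45 ± 0.11, adjusted p = 0.0337).

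In the other detoxification families, 1 of 31 tested glutathione S-transferase genes rose and 3 fell (12.9% called), and 5 of 78 cytochrome P450 genes rose and 16 fell (26.9% called). These shares stand beside 5.23% of all tested genes and 6.67% of the tested UGT genes, and the differences were not tested.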

How the data were processed

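RNA was measured in 12 libraries of heads, 6 Tau and 6 Control, made with a stranded kit that depletes ribosomal RNA, per the labels' protocols. The submitters' processing notes name Trimmomatic 0.36, FastQC, Salmon 0.13.1, DESeq2 1.24 and the build dm6. As the deposited table's title says, its signal values are gene counts normalised by the authors with DESeq2; transcript annotation is not given in the sources used here. Per the file headers, 1 Salmon result joined 2 lanes for each library. Between 46.9 and 82.3% of low values lay within 0.05 of a whole multiple of 1 step, so reads could not be recovered and count models were not fitted. Depth is therefore known only as totals, and no counting intervals are given.

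Values were analysed as log2(value + 1), which understates changes of low genes. Genes with a mean of at least 10 entered a limma 3.58.1 model (R 4.3.3) with a variance trend and no covariate, two-sided, with Benjamini-Hochberg adjustment over all 10845 genes. The fit was tested on simulated data. Single sums and ratios were compared by exact permutation over all 924 assignments, whose smallest p is 0.00216. Libraries are pools that the submitters call independent. Of 13515 rows, 13432 matched the gene name table. Exon lengths and positions came from Ensembl release 115.

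Members, lists, tests and alternatives were chosen with earlier results of these data known. Full values are given for called members and for the 6 with the highest level per kb; of other lists, up to 3 called members are named, and others were named after their values were seen. Summing pairs by protein identity was planned, but no protein sequences were at hand, so neighbours of the same subfamily name were summed instead. No sequences are printed for the same reason. Alternatives used another pseudocount, filter, scaling, variance model, array weights or a replicate block, or left out libraries. Of the list for UDP-sugar supply, only sgl and UGP are described, and other results of it are not reported here.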

Additional observations from a re-analysis of the deposited data

Results flagged for a closer look

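Dixon's test was run on 28 groups of 6 libraries, which cover only some of the members and their sums. In these groups 2 values stood apart from the rest at the 95% level, where chance flags about 1 in 20. The first was Ugt49C1 in Tau C, with 1094 normalised counts against 725 to 856 in the other Tau libraries. The second was the sum of Ugt303B1, Ugt303B2 and Ugt303B3 in Tau B, with 242 against 3.83 to 31.6 in the other Tau libraries. Tau B is one of the 3 libraries with reads in genes that are silent elsewhere. Low members that were not put to Dixon's test singly also stood high in Tau B. Ugt303B3 had 118 there against at most 11.7 in the other Tau libraries, and Ugt303B2 had 63.9 against at most 3.65.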

How the results depend on the processing

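No Ugt gene was called higher in Tau with the main settings, and 1 was (Ugt49B1) with libraries rescaled to the same total, with array weights and with a replicate block (log2 fold change 0.74, limma adjusted p = 0.00585). Same-letter libraries did not clearly deviate together across genes (correlations from −0.23 to 0.14). With only 6 letters, these correlations cannot decide whether the letters pair the samples. The replicate block moved the count of all genes called to 699, against 567 without it, and 2 of the 6 Tau libraries correlated best with the Control library of their own letter. Of 2 Ugt genes called lower, 1 remained without a variance trend, and 1 with Tau B, Control E and Control F left out together; with 1 library left out, 1 to 3 were called, the third being Ugt36A1. Ugt35B1 was among them in all 22 alternatives. The median log2 fold change of the tested members ran from −0.42 without Control B to −0.026 with libraries rescaled to the same total. Rescaling to equal totals shifted the median of all genes by 0.10, and relative to all genes the members' median was −0.14 with it and −0.17 without. With 1 library left out, the values of Ugt302C1 ran from −0.11 to 0.21, those of Ugt37D1 from −0.072 to 0.21 and those of the sum of Ugt35E1 and Ugt35E2 from −0.19 to 0.048, on both sides of 0. The cause of these changes was not tested. Reads in silent genes limit what can be said of the 17 members with a mean under 50.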

Other observations

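Inside the array of 10 Ugt genes on 3R lie 3 genes without a Ugt symbol, CG4757, CheA86a and mAcon2. Only CG4757 (FBgn0027584; 11161207 to 11163498), which lies between Ugt302C1 and Ugt35E1, is described here. It had 3199, 1210, 1472, 2745, 2806 and 2709 normalised counts in Tau A to F, and 462, 627, 651, 472, 917 and 586 in Control A to F. The groups did not overlap, and it rose 3.67-fold (log2 fold change 1.88 ± 0.23, limma adjusted p = 0.000455). Of the 9 tested Ugt genes of the array, 1 fell and none rose.

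Ugt305A1 on 3L had the largest positive log2 fold change among tested members that did not depend on Tau B, Control E and Control F for their mean. It was at 23.1 to 64.3 normalised counts in Tau libraries and at 17.9 to 40.4 in 5 Control libraries, and was listed at 0 in Control C (1.46 ± 0.74, adjusted p = 0.326).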
